A study of Homo sapiens with 16 samples.

Results

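The p53 target genes described here are CDKN1A, MDM2, GDF15, BAX, SESN1, ZMAT3, TP53I3, FDXR and PHLDA3, 9 genes of the 27043 gene rows in a count table of single SK-N-AS cells. They were chosen by name, as the rows that carry one of these symbols. SK-N-AS is an established human cell line of neuroblastoma, a childhood tumour that arises from precursors of sympathetic neurons. The cells were untreated, grown in RPMI1640 with serum and antibiotics, and sorted one by one into plate wells for MARS-seq, a method that reads the 3′ ends of polyadenylated RNA. All 603 cells are of this 1 line and condition, and the cell names do not show which of the 16 labelled samples a cell belongs to, so the table was read as 1 sample without replicates.

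The p53 protein is a transcription factor that is stabilised after DNA damage and other stress and switches on genes of cell cycle arrest, cell death, DNA repair and metabolism. In unstressed cells it is kept low by MDM2, a ubiquitin ligase that is itself made from a p53 target gene, which closes a feedback loop. CDKN1A encodes p21, an inhibitor of cyclin-dependent kinases and the best known arrest target. The target genes also respond to other inputs, so their RNA is no direct readout of p53.

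Sequence before the transcription start is shown first for the 3 targets that were measured best in these cells, and then for 3 targets with a near-match to the p53 site. The p53 site is made of a pair of decamers, each called a half-site, and a full site has 20 letters. The windows are RefSeq's on GRCh38.p14, with 250 bases before and 50 after each annotated start. Of the 9 genes 8 were matched, with 15 windows, and PHLDA3 was not matched. The files' own build is hg19, and no coordinate was moved between builds. Each line holds the last 120 bases before 1 start, 5′ to 3′ on the gene's strand, at chr6:36678594-36678713 (+) for CDKN1A, chr2:24084835-24084954 (-) for TP53I3, chr19:48954755-48954874 (+) for BAX, chr12:68808897-68809016 (+) for MDM2, chr17:74872995-74873114 (-) for FDXR and chr6:109008989-109009108 (-) for SESN1. Capitals mark the best-scored stretch of a window where it lies within 3 letters of the full p53 site, and no second stretch is marked.
CDKN1A: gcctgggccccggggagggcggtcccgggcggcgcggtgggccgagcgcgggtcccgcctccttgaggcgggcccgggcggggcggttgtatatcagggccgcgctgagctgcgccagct
TP53I3: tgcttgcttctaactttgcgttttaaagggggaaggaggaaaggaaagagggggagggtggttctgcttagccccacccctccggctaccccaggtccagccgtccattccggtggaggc
BAX: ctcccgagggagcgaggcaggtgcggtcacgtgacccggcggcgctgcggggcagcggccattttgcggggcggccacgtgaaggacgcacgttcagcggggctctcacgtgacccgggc
MDM2: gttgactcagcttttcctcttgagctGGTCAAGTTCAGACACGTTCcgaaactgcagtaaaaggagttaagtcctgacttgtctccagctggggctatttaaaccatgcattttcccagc
FDXR: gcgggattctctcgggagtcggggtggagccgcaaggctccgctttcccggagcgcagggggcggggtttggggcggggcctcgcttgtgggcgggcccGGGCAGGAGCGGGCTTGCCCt
SESN1: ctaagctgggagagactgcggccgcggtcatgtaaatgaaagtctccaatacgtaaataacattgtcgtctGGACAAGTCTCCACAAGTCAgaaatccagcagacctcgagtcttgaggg

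The capitals of MDM2 differ from the consensus at 2 of 20 letters and begin 94 bases before the start. Those of FDXR and SESN1 differ at 3 letters and begin 21 and 49 bases before theirs. The MDM2 line also holds agttaagtcctgacttgtct, a stretch 3 letters off that is not the best-scored of its window and so is unmarked. A best-scored stretch 3 letters off also lies in GDF15, at chr19:18386186-18386205 (+), from the 29th transcribed base on. It is given here because it is the remaining near-match among the best-scored stretches.
GDF15: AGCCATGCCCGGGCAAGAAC

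In all, 5 of the 15 windows, from 4 of the 8 matched genes, held a full site within 3 letters, against 1.12% of 35116 windows of all genes. Of these 5 windows, 2 are MDM2 windows that overlap and hold the same stretch. The genes were chosen as p53 targets, so this comparison is no test. An exact half-site was found in 2 of the 15, those of SESN1 and FDXR, against 6.63% of all windows. The consensus reads the same on both strands. In each of the 15 windows with a value, the nearest stretch holds the C and the G at the core of each decamer. For 1 ZMAT3 window no stretch was given a value. Stretches without these core letters thus appear not to have been scored, and closer ones could have been passed over. The share over all windows rests on the same search. Among the stretches scored, the nearest in the windows of CDKN1A, BAX and TP53I3 were 5, 6 and 10 letters off. As background, the known p53 sites of CDKN1A lie further upstream than this window, and the MDM2 window shown belongs to the internal start that follows its p53 sites. The GC box GGGCGG, a common promoter element, was found on either strand in 12 of the 15 windows, against 44.95% of all. A match is a description of letters, and its absence says only that the letters are not in this window.

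The 603 cells held 1537576 counts, and 13641 gene rows had a count. The median cell had a total of 2106, the lowest total was 1000 and the highest 42404, and the deepest cell gave 2.76% of all counts. The table names 364 barcodes, of which 239 are used by 2 cells, 1 in a first run of 316 columns and 1 in a second run of 287. These runs are called barcode set 1 and set 2. They are not groups of the study and serve as a check. For the labelled cell type, the 10 sympathetic markers had a median of 122.6 CPM (counts scaled to a fixed library total). They ran from TBX2 at 407 CPM and HAND2 at 273 CPM to TH with 3 counts and DBH with 0. The 9 mesenchymal markers had a median of 119 CPM and ran from VIM at 5649 CPM to SNAI2 at 11.7 CPM. Of the leukocyte markers 3 of 6 were at 0, but CD68 was at 54.6 CPM in 11.4% of cells and PTPRC at 18.9 CPM. Of the endothelial markers 2 of 5 were at 0, and FLT1 was at 25.4 CPM. Their part in the results was not tested.

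Levels are given in CPM, the sum of a gene's counts over all cells, scaled to the usual library total, and 1 count is worth 0.650 CPM. They carry 95% Poisson intervals, and shares of cells carry 95% exact binomial intervals. Intervals here take in counting error only and leave out how cells, plates or cultures vary. A gene at 0 counts is given a limit of 3 counts, 1.95 CPM, which is a 1-sided bound and lower than the upper end of the 2-sided interval. Since 1 transcript gives 1 3′ end in this method, CPM was compared between genes without a length correction, and with the reservation that genes can differ in how well their ends are caught. Whether counts are molecules or reads was not given. With reads, 1 transcript can give several counts, which the intervals leave out and which bears on cells with several counts of a gene.

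The regulators of p53 were covered unevenly. All 20 genes of that list had counts, and 11 had at least 50. The highest were the ribosomal proteins RPL11 and RPL5, which bind MDM2 under ribosomal stress as well as serving the ribosome, at 5660 and 1284 CPM. They were followed by the proteasome activator PSME3 at 225.7 CPM and the histone chaperone DAXX at 167.8 CPM. MDM4, the MDM2 relative that blocks p53, was at 30.6 CPM, from 47 counts. The damage kinase ATM was at 14.3 CPM, from 22 counts, and its relative ATR had 1 count.

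The 9 targets fell into grades of abundance. CDKN1A, TP53I3 and BAX were measured with 172, 130 and 87 counts. MDM2, ZMAT3, FDXR and PHLDA3 had between 11 and 26 counts, GDF15 had 4, and SESN1 had 0. Together they held 463 counts. Their median was 3.59 on the log2(CPM + 1) scale, which is 11.1 CPM, against 4.00 (14.96 CPM) over all rows with a count and 0.72 (0.650 CPM) over all rows, of which 13402 were at 0. SESN1, at 0, is among the 9. The near-matches to the p53 site shown above lie in genes of the lower grades. ZMAT3, also of a lower grade, had a best-scored stretch 4 letters off, and PHLDA3 had no window. A relation between site and level was not tested.

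CDKN1A, the arrest gene, was the most abundant of the 9, at 112 CPM (95.8 to 129.9), above 87.8% of all rows with a count. The sets gave 117 and 106.5 CPM. It was seen in 120 cells, 19.9% (16.8 to 23.3). Of these cells 80 had 1 count, 31 had 2, 8 had 3 and 1 had 6. If every cell held the gene in proportion to its total, 141.5 cells would have a count and 23.8 would have 2 or more, whereas 40 cells had 2 or more. CDKN1A counts were thus on fewer cells, and more often several to a cell, than totals alone give. The 10 cells with the most CDKN1A held 18.6% of its counts.

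TP53I3 encodes PIG3, a quinone oxidoreductase tied to oxidative stress, and came next at 84.5 CPM (70.6 to 100.4). It was seen in 99 cells, 16.4% (13.6 to 19.6), against 111.5 by totals alone, and 22 cells had 2 or more against 14.9. Its sets were close, at 87.8 and 81.2 CPM. FDXR, the mitochondrial ferredoxin reductase, had 16 counts in 16 cells, 10.4 CPM (5.95 to 16.9). The sestrin SESN1, an inhibitor of mTORC1 signalling, had none, which allows up to 1.95 CPM and up to 0.498% of cells with a count at the limit of 3 counts. The 2-sided intervals end at 2.40 CPM and 0.610% of cells.

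BAX, which forms pores in the outer mitochondrial membrane during apoptosis, was at 56.6 CPM (45.3 to 69.8), in 78 cells or 12.9% (10.4 to 15.9). By totals alone 78.1 cells would have a count, so its spread over cells did not stand apart from the depth of the cells. The sets differed more than for the other genes of this grade, at 42.0 CPM (28.9 to 58.9) in set 1 and 71.9 (54.0 to 93.8) in set 2, with intervals that overlap.

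Among the lower genes, MDM2 had 26 counts in 26 cells, 16.9 CPM (11.1 to 24.8) and 4.31% of cells, with 17.8 CPM in set 1 and 15.97 in set 2. ZMAT3, an RNA-binding zinc finger protein, was at 11.1 CPM (6.44 to 17.7) in 16 cells. PHLDA3, a pleckstrin homology protein that restrains AKT, was at 7.15 CPM (3.57 to 12.8) in 9 cells. GDF15, a secreted stress cytokine of the TGF-beta family that the integrated stress response also induces, was at 2.60 CPM (0.709 to 6.66). Its 4 counts lay in 3 cells, all of set 1. The intervals of MDM2, ZMAT3, FDXR and PHLDA3 overlap in order of level, and CDKN1A and TP53I3 overlap as well, while TP53I3 and BAX just part and BAX and MDM2 lie well apart.

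**Figure D1:**
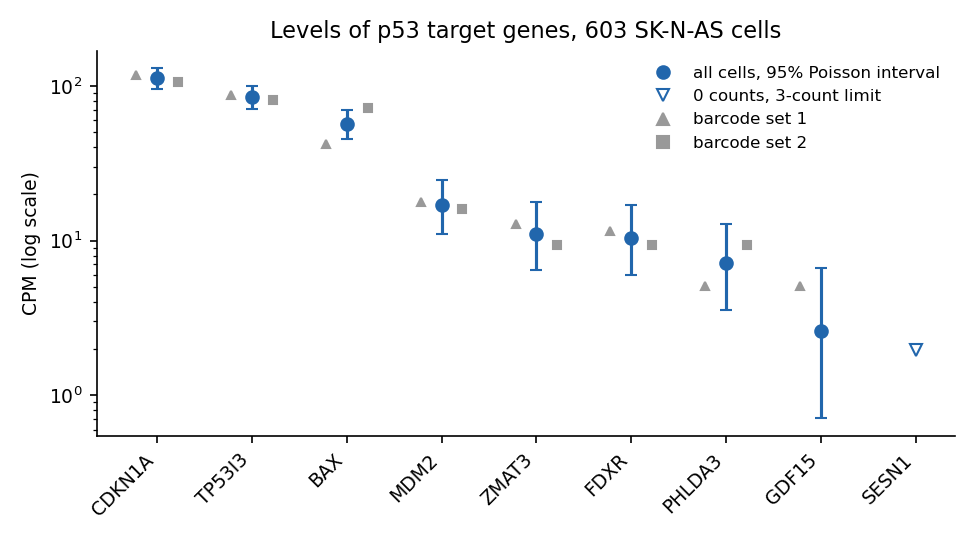
Levels in CPM, on a log axis, of the 9 targets over 603 cells, with 95% Poisson intervals, beside the level in barcode set 1 (grey triangles) and set 2 (grey squares; none is drawn at 0). CDKN1A, TP53I3 and BAX lie above 50 CPM, 4 targets lie between 7.15 and 16.9 CPM, GDF15 is at 2.60 CPM, and SESN1 is drawn as an open triangle at 1.95 CPM, the limit of 3 counts, below the upper end of a Poisson interval at 2.40 CPM.

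A wider list of 57 other p53 targets with a row gives the setting. Of these 13 had 0 counts and 14 had at least 50, and their median was 3.14 on the log2(CPM + 1) scale. GPX1, a glutathione peroxidase, was at 378.5 CPM. Of the arrest genes GADD45A was at 62.4 CPM, PLK3 at 24.7, BTG2 at 8.46 and CCNG1 at 0.650. Of the death genes the receptor TNFRSF10B was at 93.0 CPM, BID at 65.7 and AEN at 49.4, while PMAIP1 and BBC3, which encode NOXA and PUMA, were at 3.90 and 1.95. The repair genes POLK and DDB2 were at 46.2 and 15.6 CPM. Well measured and sparse targets thus stood side by side in each role.

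Whether the 9 targets were found in the same cells was asked next. At least 1 of them had a count in 281 cells, 46.6%, and at least 2 had one in 63 cells, 10.4%. If the genes were placed independently over cells in proportion to cell totals, keeping each gene's number of cells, 275 cells would have at least 1 and 74.6 at least 2. Summed over the 36 pairs of genes, a pair was seen in the same cell 115 times, against 113.7 under that placement. Over all pairs this is close to what shares and depth give, but the cells were spread differently: 46 had exactly 2 targets against 60.4, and 6 had 4 targets against 1.86.

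Single pairs went both ways. CDKN1A and TP53I3 shared 18 cells against 25.0, CDKN1A and BAX 15 against 19.9, and BAX and TP53I3 19 against 16.7. MDM2 shared 11 cells with CDKN1A against 6.92, 8 with BAX against 4.70 and 8 with TP53I3 against 5.82, while its pairs with ZMAT3, PHLDA3 and GDF15 held 1, 0 and 0 cells against 1.07, 0.611 and 0.207. These are small numbers, with no replicate to set them against.

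To remove depth, each cell was thinned at random to 1100 counts, which kept 560 cells and left out 43 shallower ones. CDKN1A was then seen in 62 cells (11.1%), TP53I3 in 45 (8.04%) and BAX in 31 (5.54%). At this depth 17 cells had 2 or more targets, against 16.9 from the product of shares. The mean Spearman rho over the 28 pairs with a value was 0.0036, with a range of -0.084 to 0.117, and 9 pairs were above 0. Pairs that shared no thinned cell all had a rho below 0. With counts this sparse, these values cannot show whether targets rise together. Between CDKN1A and the sum of the other targets rho was -0.055. The points are cells of 1 table that share library and depth, the counts are sparse, and coefficients of this size are no finding. In full counts the sum of the targets followed the cell total with rho 0.328, so joint detection in unthinned cells carries depth.

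**Figure D2:**
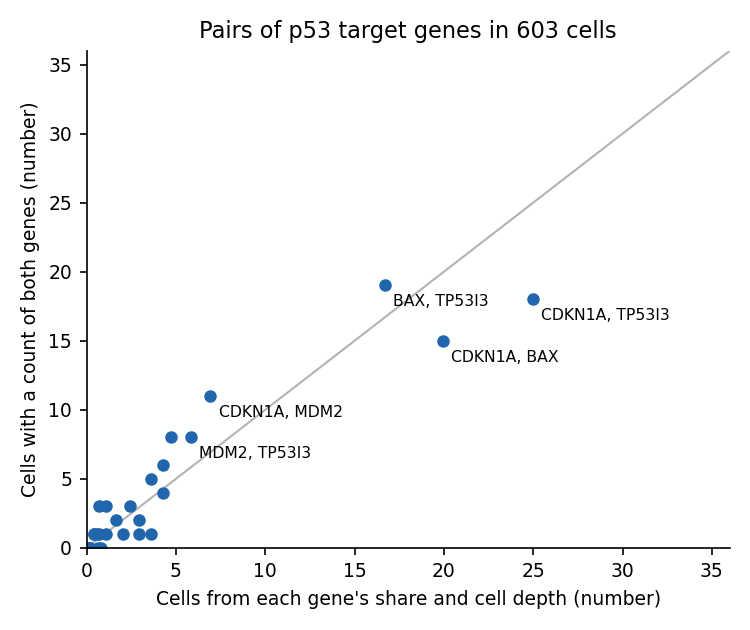
Cells with a count of both genes of a pair (vertical axis) against the number that shares and cell totals give (horizontal axis), with 1 point per pair of targets and a line of equality. Points lie on both sides of the line, with CDKN1A and TP53I3 at 18 against 25.0 and CDKN1A and MDM2 at 11 against 6.92.

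The arrest gene CDKN1A was set beside genes of the cell cycle. The 560 thinned cells were ranked by their summed count of 47 G2/M genes, many of which act in mitosis. HMGB2 and TUBB4B weigh most in this score, with 2236 and 1617 of the list's 11224 counts over all cells. The ranked cells were cut into the 186 lowest, 188 middle and 186 highest. Such groups are ranges of a score, not cell types. CDKN1A was lowest in the cells with the fewest G2/M transcripts. Its level was 56.8 CPM (37.1 to 83.2, 26 counts) in the lowest group, 135.7 (104.9 to 172.6, 66 counts) in the middle one and 130 (101.2 to 163.4, 71 counts) in the highest. The lowest group's interval did not overlap the others, and the middle and highest groups did not differ beyond counting error.

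The log2 ratio of CDKN1A between the highest and lowest G2/M group was 1.19 (0.52 to 1.90), where the interval is an exact conditional binomial one. Of 4604 genes with at least 50 counts, 12.5% were higher by 1.5-fold or more in this comparison and 8.25% were lower. The highest group had a median total of 2455 counts per cell against 2056 in the lowest, and 48.9% of its cells were of set 1 against 58.1%. Within set 1 the levels from lowest to highest were 75.3, 142.8 and 132.8 CPM, and the log2 ratio was 0.82. Within set 2 they were 31.2, 128.4 and 126.7 CPM, and the ratio was 2.03. Over both sets, a score without HMGB2 and TUBB4B gave a ratio of 1.22. In thinned cells CDKN1A was seen in 11 of 186 cells of the lowest group, 5.91% (2.99 to 10.3). It was seen in 29 of 186 of the highest, 15.6% (10.7 to 21.6), so the direction was the same at equal depth. In set 1 these shares were 10.2% (5.2 to 17.5) and 13.2% (7.0 to 21.9), with intervals that overlap widely. In set 2 they were 0 of 78 cells and 17 of 95, 17.9% (10.8 to 27.1). The difference at equal depth thus lay mostly in set 2.

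BAX and TP53I3 were the other targets with at least 50 counts. BAX was at 34.9, 55.5 and 74.8 CPM from the lowest to the highest G2/M group, a log2 ratio of 1.10 (0.23 to 2.03). Set 1 alone gave 0.43, and set 2, which had more BAX, gave 1.62. TP53I3 was at 98.2, 84.3 and 76.6 CPM, a log2 ratio of -0.36 whose interval spans 0, with an upper end of 0.28. So 2 of the 3 targets that could be read were past the fold upward, and TP53I3 was not past it in either direction. With cells thinned to 1500 counts BAX was at 0.55, short of the fold, and TP53I3 was at -0.86, past it downward. MDM2, with 26 counts, was at 17.5, 6.17 and 27.4 CPM, and all 4 counts of GDF15 were in the lowest group.

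**Figure D3:**
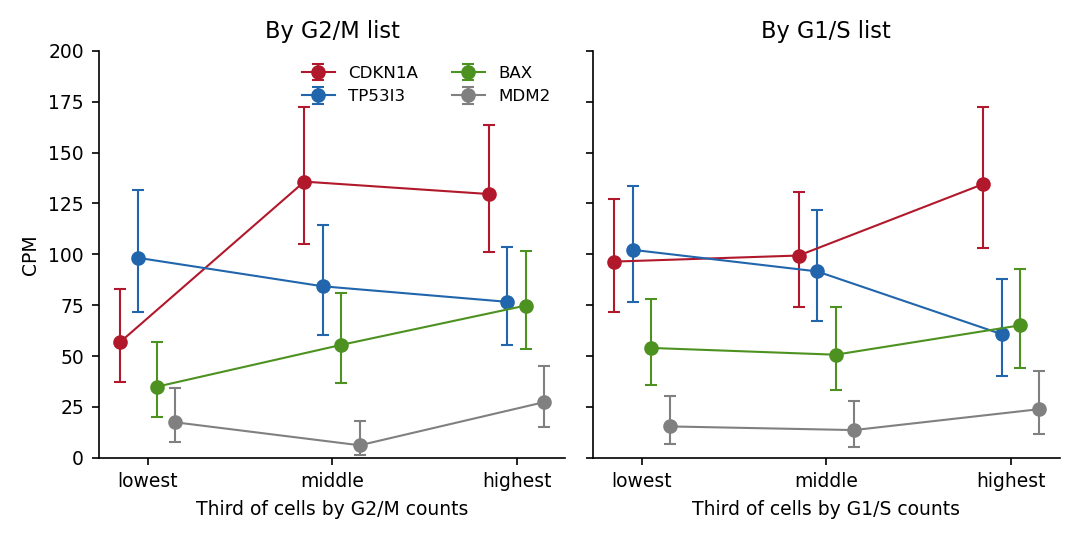
Levels in CPM with 95% Poisson intervals of CDKN1A, TP53I3, BAX and MDM2 in the cells with the lowest, middle and highest summed count of G2/M genes (left) and of G1/S genes (right). CDKN1A is at 56.8 CPM in the lowest G2/M group against 135.7 and 130 in the others, and TP53I3 is at 102 CPM in the lowest G1/S group against 60.8 in the highest.

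The 57 other targets did not share the direction of CDKN1A and BAX. Their summed log2 ratio between the highest and lowest G2/M group was -0.04 (-0.17 to 0.092). Of the 14 with at least 50 counts 5 were above 0, and their median was -0.06. The exonuclease gene AEN, at 0.79 (-0.12 to 1.75), was the only 1 of the 14 higher by 1.5-fold, and 0 were lower by that much. Of 6 other inhibitors of cyclin-dependent kinases only CDKN2C and CDKN2D had at least 50 counts, and both were higher, like CDKN1A. CDKN2C, which inhibits CDK4 and CDK6 and is not a standard p53 target, was the most abundant of them at 185.4 CPM (164.5 to 208.2), above CDKN1A. It was at 273.7 CPM in the highest and 113.5 CPM in the lowest G2/M group, a log2 ratio of 1.27 (0.81 to 1.75). Its relative CDKN2D had a ratio of 1.01 (0.16 to 1.92).

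Ranking by 38 G1/S genes, which prepare and carry out DNA replication, gave another picture. CDKN1A was at 96.4 CPM in the 186 cells with the lowest G1/S count, 99.4 in the middle and 134.5 in the highest. Its log2 ratio was 0.48 (-0.08 to 1.05), with an interval that spans 0. TP53I3 went the other way, at 102 CPM (76.5 to 133.7), 91.6 (67.3 to 121.8) and 60.8 (40.4 to 87.8), a log2 ratio of -0.75 (-1.47 to -0.063). The size depended on the thinning: the ratio was -0.070 with cells thinned to 1000 counts, and -1.02 to -0.35 in 9 other thinnings. In set 1 it went from 103.2 to 66.2 CPM and in set 2 from 101.1 to 55.5. BAX was at 54.0, 50.7 and 65.1 CPM, a log2 ratio of 0.27 (-0.52 to 1.07). In this comparison 8.59% of 4609 genes were higher by 1.5-fold and 9.13% were lower. Of the 14 other targets 3 were above 0, with a median of -0.21.

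Cutting both scores at their medians gave 4 groups. CDKN1A was at 69.6 CPM (47.6 to 98.2) in the 184 cells low for both. It was at 125.8 CPM in the 112 cells high for G1/S only, 141.9 (109.1 to 181.6) in the 150 high for G2/M only, and 106.3 in the 114 high for both. TP53I3 instead had its highest level, 119.5 CPM (90.05 to 155.6), in the cells low for both, and was at 61.1, 67.6 and 83.7 CPM in the other groups. BAX was at 41.3 and 39.6 CPM where G2/M was low, and at 69.8 and 74.1 CPM where it was high. The BAX intervals of the 4 groups all overlapped, and the differences between the genes' patterns were not tested.

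Read from the side of the gene, the 62 thinned cells with a CDKN1A count were set against the 498 without. They were of similar depth, with median totals of 2415 and 2197. In this comparison 8.82% of 4637 genes were higher by 1.5-fold in the positive cells and 13.8% were lower. The G2/M genes were higher, with a summed log2 ratio of 0.40 (0.32 to 0.47), 0.21 in set 1 and 0.63 in set 2. Of the 34 G2/M genes with at least 50 counts 30 were above 0, 12 were higher by 1.5-fold and 0 lower, and their median was 0.47 against -0.014 over all 4637 genes. A cell had a mean of 10.2 thinned G2/M counts with CDKN1A and 7.37 without. How large this difference is depended on the random thinning that chose the positive cells. In 9 other thinnings the log2 ratio ran from 0.043 to 0.40, so the main thinning lies near the top of that range. Set 2 thinned anew gave 0.27. The numbers of genes above, and the single genes below, are given for the main thinning only.

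Among the G2/M genes the highest ratios were those of CDCA8, a subunit of the chromosomal passenger complex, at 1.52 (0.96 to 2.06), and TOP2A, the mitotic topoisomerase, at 1.11. CCNB1, the cyclin of mitotic entry, was at 0.98 (0.33 to 1.58) and the kinase AURKB at 0.96. The lowest were NUSAP1 at -0.54, KIF23 at -0.27, CKS2 at -0.05 and PTTG1 at -0.03. Most genes of the list, but not all of it, lay on the higher side.

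In the main thinning the G1/S genes showed no such shift. Their summed log2 ratio was -0.04 (-0.17 to 0.074), and of 29 genes 10 were above 0, 0 were higher by 1.5-fold and 7 were lower, with a median of -0.11. TYMS, which makes thymidylate, was highest at 0.55 (0.15 to 0.92), and UHRF1 was at 0.51. The helicase loader CDC6 was at -1.10, the transcription factor E2F1 at -0.94, and ATAD2 was lowest at -1.41. Here too the value depended on the thinning, and its sign turned, with values from -0.18 to 0.20 in the 9 others. At 1500 counts the lists were close, at 0.16 for G1/S and 0.19 for G2/M. With 2 counts as the minimum for a positive cell G1/S was at 0.46 and G2/M at 0.32. The difference between the lists was therefore not stable.

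**Figure D4:**
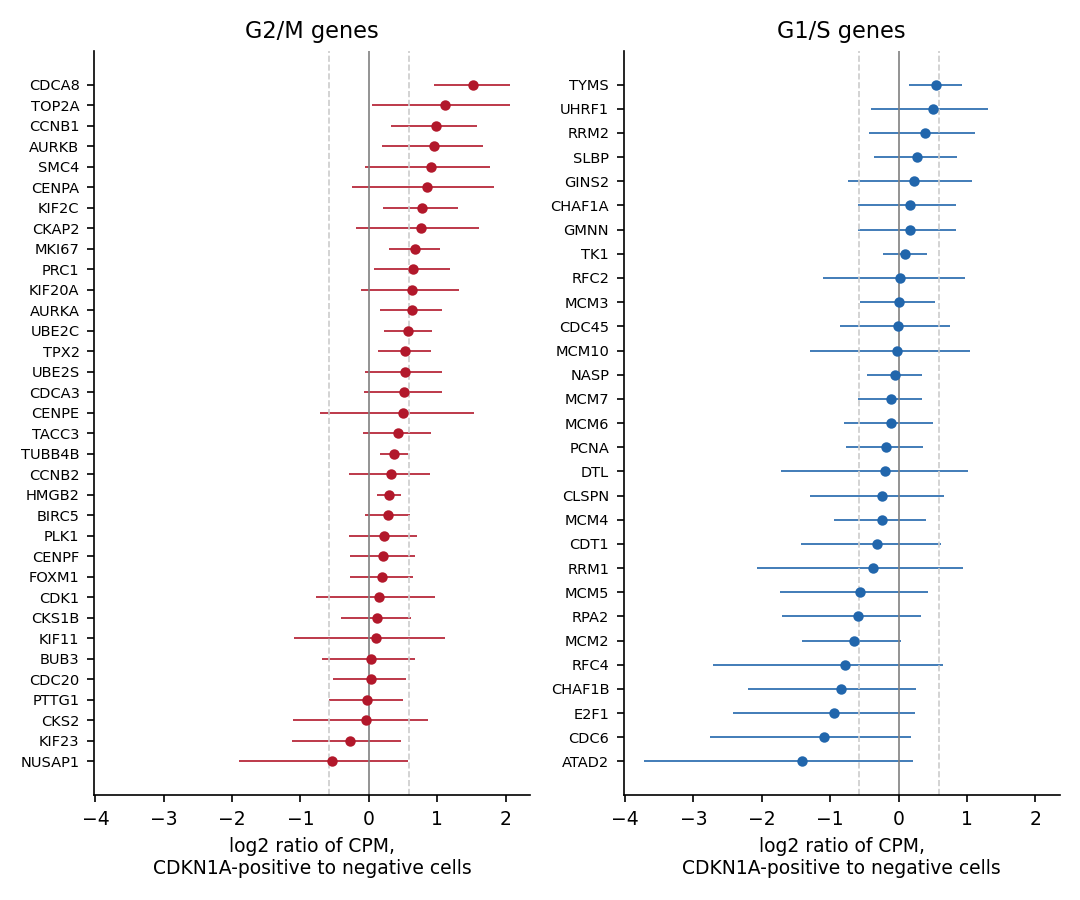
Log2 ratios of CPM in CDKN1A-positive against negative cells, with exact 95% intervals, for each of the 34 G2/M genes (left) and 29 G1/S genes (right) with at least 50 counts. The solid line marks 0 and the dashed lines a 1.5-fold difference in either direction. Of the G2/M genes 30 lie above 0, and of the G1/S genes 10 do. Positive cells are those of the main thinning.

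The other targets were not set apart in the CDKN1A-positive cells. Their summed log2 ratio was 0.10 (-0.45 to 0.60), from 36 counts in positive and 249 in negative cells. Its direction turned with the setting, at -0.68 as a mean of thinned counts, -0.62 to 0.19 in 9 other thinnings and 0.59 in set 2 thinned anew. TP53I3 was at -0.53 (-1.57 to 0.37) and BAX at -0.17, and neither could be told from 0. MDM2 was at 1.15 (-0.46 to 2.52), from only 6 and 20 counts. The 57 wider targets had a summed ratio of 0.08 (-0.09 to 0.24). Of the 14 with at least 50 counts 9 were above 0, and their median was 0.18 against -0.014 over all genes compared. None of the 14 was higher by 1.5-fold and 2 were lower, POLK at -1.16 and TIGAR at -0.99. CDKN2C had a ratio of 0.58 and CDKN2D one of 0.63.

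Across the 560 thinned cells CDKN1A had a Spearman rho of 0.140 with the summed G2/M genes and of 0.022 with the G1/S genes. The genes whose counts followed CDKN1A most closely among 2059 with a mean thinned count of at least 0.1 were FOSL1 at rho 0.167, FAM50A at 0.164, SNRPF at 0.146, RAB1B at 0.134 and TPX2 at 0.132. The lowest values were -0.124 for COPE, in a row joint with HOMER3, -0.121 for RPL23 and -0.118 for UBE2G2. These are weak values in sparse counts of cells that share library and depth. FOSL1 was named again in 3 of 9 other thinnings, and its rho ranged from 0.0016 to 0.188. The list of nearest genes is therefore not a stable property of these data. CDKN1A was listed in any case, with its 172 counts, and none of the other targets had the 200 counts asked of them.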

How the data were processed

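RNA of 603 single SK-N-AS cells was measured by MARS-seq. The authors deposited 1 table of raw counts, whole numbers for each gene in each cell. The submitters' processing notes name Bowtie2 2.1.0 and the build hg19. The counting step, its annotation and the nature of the counts (molecules or reads) were not given in the sources used here. A row named unknown (2 counts) was left out. The column names identify no sample, so cells were pooled, no test was run and no p-value is given. Replicates, and so the spread between cultures or plates, could not be read.

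From the counts, CPM was computed over summed cells with 95% exact Poisson intervals, shares with 95% Clopper-Pearson intervals, and log2 ratios of CPM with exact conditional binomial intervals for genes with at least 50 counts. A ratio of 1.5 in either direction is called past the fold. Scores, and which cells count as positive, use cells thinned without replacement to 1100 counts. Levels in those groups use full counts. Genes used for a score were left out of other lists in that comparison. No doublet caller was run because cells were sorted singly.

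The 9 genes and all gene lists were chosen with earlier results of these data known. Named genes are the 9, the 4 highest of each list by CPM, the 4 highest and lowest ratios for CDKN1A, and the 5 highest and 3 lowest correlations with CDKN1A. Other named genes belong to the lists and were picked for their role or after their values were seen. Some genes named by the rule are not reported here but count in the list totals. The calculations used Python 3.11.15, numpy 2.4.6, scipy 1.17.1 and pandas 2.3.3, with matplotlib 3.10.9 for plots, and were tested on simulated data. Alternatives were other thinning depths and draws, each barcode set alone, cells without the deepest one, other minimum counts and other cuts. Lists without their most abundant genes, and the repeats for BAX and TP53I3, were chosen after seeing the data.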

Additional observations from a re-analysis of the deposited data

How the results depend on the processing

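The ratio of CDKN1A between cells with high and low G2/M counts was above 0 in 10 of 10 alternatives, from 0.76 to 2.18, the latter in barcode set 2 with groups cut within it, against 1.19. That of BAX was above 0 in 8 of 8 (0.55 to 1.34), and that of TP53I3 below 0 in 8 of 8 for G2/M (-1.04 to -0.23) and for G1/S (-1.02 to -0.070). The ratio of CDKN1A by G1/S was above 0 in 8 of 9 (-0.079 to 0.63).

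Comparisons of CDKN1A-positive and negative cells moved more. For the G2/M genes the log2 ratio, 0.40, was 0.19 at 1500 counts, 0.28 without thinning and 0.21 in set 1. It was 0.27 in set 2 when thinned anew and 0.043 to 0.40 in 9 other thinnings. With 2 counts as the minimum for a positive cell it was 0.32. For the G1/S genes, -0.04, it was 0.16 at 1500 counts, 0.14 without thinning, 0.092 in set 2 thinned anew, -0.18 to 0.20 in other thinnings and 0.46 from 2 counts. For the other wider p53 targets, 0.08, it was 0.26 at 1500 counts, 0.29 in the highest other thinning and 0.32 from 2 counts. For the other 8 of the 9 targets, 0.10, it was -0.62 in the lowest other thinning, -0.68 as a mean of thinned counts and -1.48 from 2 counts. The G2/M ratio in TP53I3-positive cells, -0.66, was 0.14 in the highest other thinning. The causes were not tested. With a minimum of 100 counts, 4.92% of genes were higher and 8.25% lower by 1.5-fold. The median level of the 9 genes was 6.42 over those with at least 50 counts. The mean correlation between targets was -0.016 at 1500 counts and 0.032 without thinning. Of the alternative values, 98 stayed within the main value's interval, or within 1.5 times it for shares of genes, and 37 did not, several of them with a turned sign as given above.

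Depth limits most of the 9 genes: with 1 CDKN1A count per 8939 counts, a cell without a count is not a cell without the RNA. No paired analysis was possible because the cell columns carry no sample or replicate number and all cells form 1 group.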
